A study of Caenorhabditis elegans with 4 samples.

Results

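The genes described here are those of the sensory cilium of Caenorhabditis elegans and of intraflagellar transport, the traffic of particles along the cilium. They were chosen by symbol alone: every probe whose annotation names 1 gene with a symbol of the che, osm, dyf, bbs, ifta, ift, xbx, nphp, mks or mksr series. This gave 58 probes for 54 genes, of 14901 named genes tested in all. The RNA came from wild-type worms at L4, the last larval stage, in 4 preparations, each hybridised on its own 2-channel array against a wild-type mixed reference RNA. The labels name no tissue, strain, sex or culture temperature and do not say what the reference mixed, and the RNA is taken here to be that of whole worms. The 4 arrays form 1 group. Separate cultures are not stated for the preparations, and p-values then measure only the spread between these samples, which may be technical.

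Each value is a log2 ratio between the channels, with the median of its array set to 0. The sources used here do not state which channel is the numerator. A positive value is read as likely higher in L4, because the labels set L4 against the reference, and "higher" and "lower" carry that limit throughout. Values were present for 21084 to 21489 of 21632 probes per array. As a check of the stage, 29 of 30 major sperm protein genes and 5 of 6 collagen genes of the L4 and adult cuticle were higher, and 2 of 3 yolk genes were lower. The sperm median ranged from 1.12 in preparation 4 to 3.53 in preparation 2. The yolk median ranged from -5.28 in preparation 4 to -0.73 in preparation 2. The cuticle median ranged from 1.82 in preparation 4 to 4.72 in preparation 3. Each of these levels thus differed widely between preparations and was lowest in preparation 4. Why preparation 4 was lowest in each was not tested. In preparation 4 col-7, col-62 and col-19 were at -0.16, 0.12 and -2.65, while bli-1, bli-2 and col-63 were at 3.53, 5.45 and 4.30.

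In C. elegans only sensory neurons carry cilia, at the tips of dendrites that in the amphid and phasmid organs reach the outside through a channel made by glia. A cilium has no ribosomes, so its parts are carried in by the IFT-A and IFT-B particles, which kinesin motors move outward and a dynein motor moves back. The BBSome, the complex affected in Bardet-Biedl syndrome, travels with these particles, and the transition zone at the base gates what enters. Worms that lack some of these genes fail to take up dye, to sense salt or to avoid high osmolarity, and the symbols dyf, che and osm record those defects. Some genes with these symbols act elsewhere, in dendrites, glia or the osmotic response.

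Most of the 54 genes lay close to the reference. Their mean log2 ratios had a median of -0.06, with quartiles at -0.47 and 0.21, beside a median of 0.05 and quartiles at -0.38 and 0.53 over all named genes. In limma, 5 of the 54 were lower (9.26%), against 9.66% of all named genes. Higher calls numbered 2 (3.70%), against 13.4% of all named genes. The other 47 did not pass. Means of 1 or more in size were found for 4 genes (7.41%), compared with 20.2% of named genes. The lower genes were xbx-3, bbs-5, osm-11, xbx-9 and osm-12, and the higher ones were dyf-6 and dyf-4. Standard errors (SE, moderated over all genes) ran from 0.20 to 0.70, and the smallest mean that passed was 0.73 in size, so differences well below that size were not detectable with 4 arrays. All of these are ratios for whole worms, in which fewer cells of a type and less RNA per cell cannot be told apart.

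**Figure D1:**
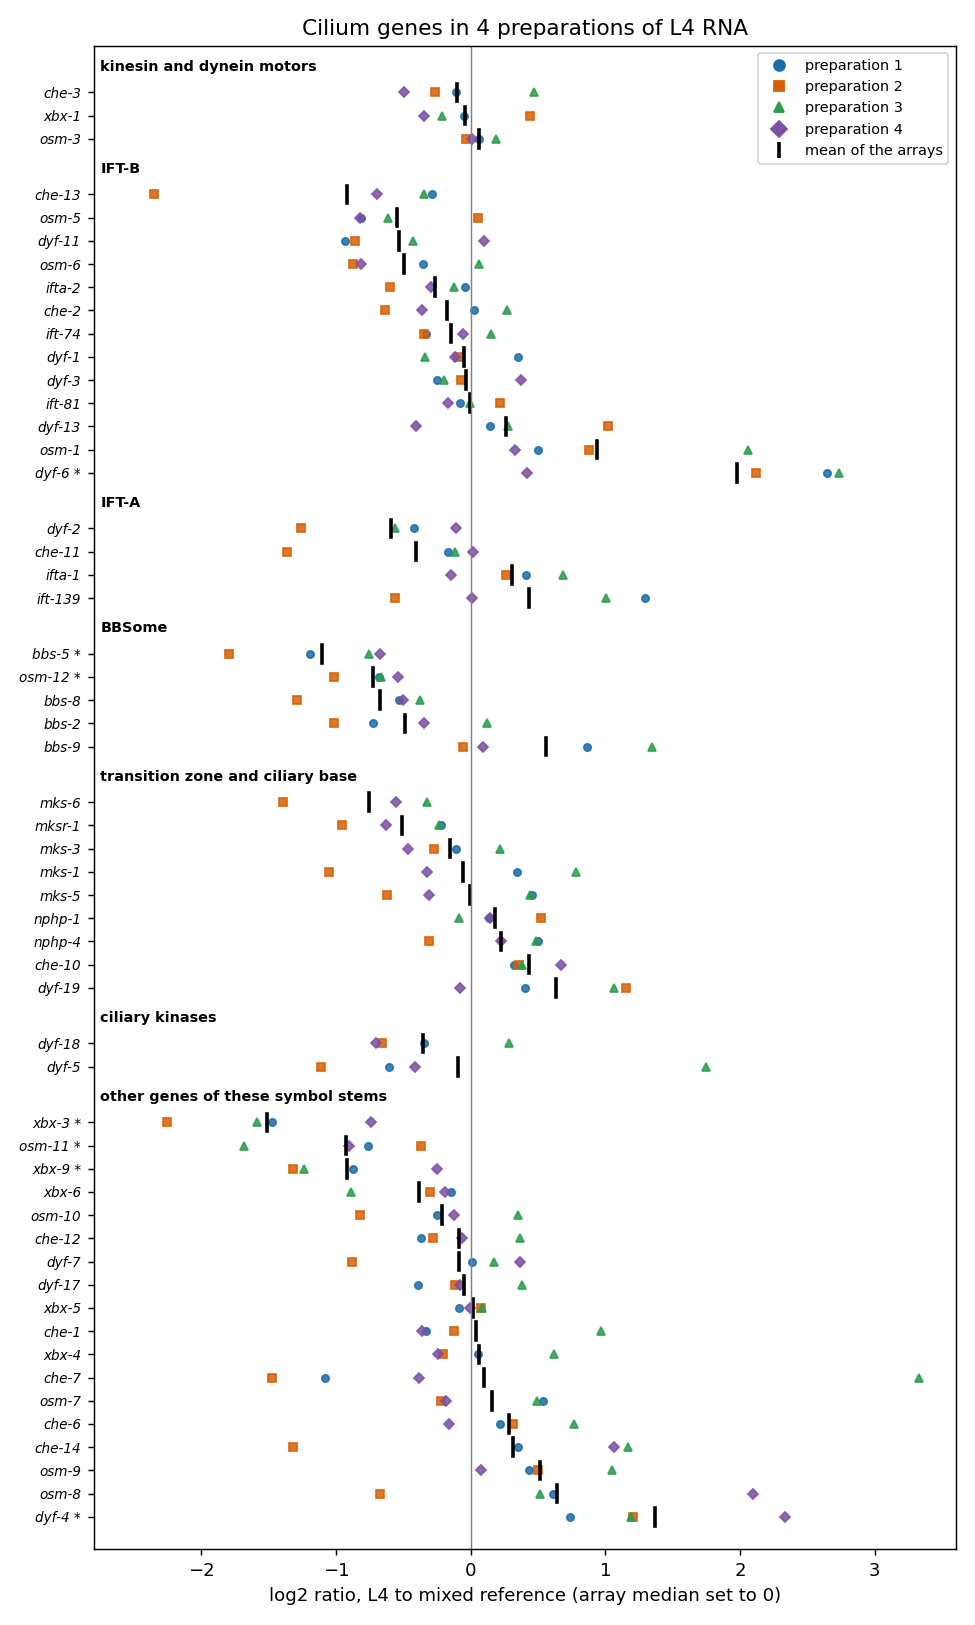
Log2 ratio of L4 to the mixed reference (x axis) for each of the 54 genes (y axis, grouped by role), 1 point per preparation and a black bar for the mean, with an asterisk on genes with an adjusted p below 0.05. Most bars lie between -0.5 and 0.5, dyf-6 and dyf-4 stand to the right, and preparation 2 is often the leftmost point.

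The motor genes did not differ detectably from the reference. For osm-3, the kinesin that builds the outer part of the cilium, the values were 0.06, -0.03, 0.19 and 0.01 in preparations 1 to 4. The arrays lay close together on both sides of 0, and the mean of 0.06 ± 0.20 (SE, n = 4) had a 95% interval from -0.40 to 0.52. For che-3, the heavy chain of the ciliary dynein, they were -0.11, -0.26, 0.47 and -0.50, with an interval from -0.64 to 0.44. The light intermediate chain of that dynein, xbx-1, had -0.05, 0.44, -0.22 and -0.35, with an interval from -0.56 to 0.47. For both dynein genes 1 array lay above 0 and the others below, so neither held a direction.

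Among 13 IFT-B genes, 1 was higher (7.69%, against 13.4% of all named genes) and 0 lower (against 9.66%). Counts this small over 13 genes say little about the complex. The median was -0.15. The higher gene was dyf-6, at 2.65, 2.12, 2.74 and 0.42 in preparations 1 to 4. All arrays were above 0, but preparation 4 was well below the other 3. The mean was 1.98 ± 0.38 (SE, n = 4), a 3.95-fold difference (adjusted p = 0.00886), and the largest in size of the 54 genes. It is measured by a single probe. Without preparation 3 the mean was 1.73 and did not pass (adjusted p = 0.0638).

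The gene next in size in this complex, osm-1, which encodes a large subunit, had 0.50, 0.88, 2.06 and 0.33. Its sign was the same on all arrays with preparation 3 highest, and its mean of 0.94 ± 0.31 (SE, n = 4) fell short of the threshold (adjusted p = 0.0636). It passed only with the arrays scaled to 1 spread (adjusted p = 0.0416).

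Next in size among the IFT-B genes was che-13. Its values were -0.29, -2.35, -0.34 and -0.70, so that preparation 2 alone set most of its mean of -0.92 ± 0.35 (adjusted p = 0.0991). For osm-5 they were -0.82, 0.05, -0.62 and -0.82, where preparation 2 was the 1 array not below 0. The mean was -0.55 ± 0.23 (adjusted p = 0.128). In dyf-11 preparations 1 to 3 were at -0.93, -0.86 and -0.43 and preparation 4 at 0.10. Thus in che-13 and osm-5, both parts of 1 particle, preparation 2 lay farthest from the other arrays, in opposite directions. Neither gene was flagged by Dixon's test, described further on.

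The remaining IFT-B genes had means between -0.50 for osm-6 and 0.26 for dyf-13. In that range ift-81 and ift-74, whose proteins form the pair that binds tubulin, were at -0.01 ± 0.20 and -0.15 ± 0.21 (SE, n = 4), with intervals from -0.48 to 0.46 and from -0.63 to 0.34. The means of dyf-1 and dyf-3 were -0.05 and -0.04, and those of che-2 and the small GTPase gene ifta-2 were -0.18 and -0.27. None of these passed.

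The 4 IFT-A genes measured had 0 calls and split by sign. With 9.66% of all named genes lower and 13.4% higher, 0 of 4 says little. The mean of dyf-2 was -0.59 ± 0.25 (SE, n = 4), with -0.42, -1.26, -0.56 and -0.11 in preparations 1 to 4. For che-11 it was -0.41 ± 0.28, with -0.17, -1.36, -0.12 and 0.02. In both, preparation 2 was the lowest array, and in che-11 it stood far from the other 3. The means of ifta-1 and ift-139 were 0.30 ± 0.22 and 0.43 ± 0.33, and the latter rests on probes that disagree, as described further on.

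BBSome genes were the role group with the lowest median, -0.68 over 5 genes, and 2 of the 5 were lower, where 9.66% of all named genes were. The values of bbs-5, a lipid-binding subunit, were -1.19, -1.79, -0.76 and -0.67 in preparations 1 to 4. Every array was below 0. The mean was -1.10 ± 0.25 (SE, n = 4), a 2.15-fold difference (adjusted p = 0.0171).

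For osm-12, which encodes the subunit BBS-7, they were -0.68, -1.02, -0.67 and -0.54. The arrays were all below 0 and close together, with an SD of 0.20 and a mean of -0.73 ± 0.21 (adjusted p = 0.0399). Values of bbs-8 were -0.53, -1.29, -0.38 and -0.50. This gene was also below 0 on every array, yet its mean of -0.68 ± 0.24 did not pass (adjusted p = 0.075).

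The mean of bbs-2 was -0.49 ± 0.25, with 1 array at 0.12. The exception in direction was bbs-9, at 0.86, -0.06, 1.35 and 0.09, with a mean of 0.56 ± 0.28 (adjusted p = 0.186). In all 5 BBSome genes preparation 2 was the lowest array. The call of bbs-5 was lost without preparation 1 or 2 (adjusted p = 0.0663 and 0.0558) and with arrays centred on ribosomal protein genes (0.0577). That of osm-12 was lost without any 1 preparation (adjusted p from 0.0696 to 0.159) and with ribosomal centring (0.114), while its mean stayed between -0.79 and -0.63 without each array in turn.

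The transition zone and ciliary base genes had 0 calls among 9 and a median of -0.01. Over all named genes 9.66% were lower and 13.4% higher, so 0 of 9 says little about the group. Among the Meckel syndrome module, mks-6 was at -0.76 ± 0.30 (SE, n = 3) and mksr-1, a B9 domain gene, at -0.51 ± 0.23 (SE, n = 4), both below 0 on every array that measured them. In mks-1 the values were 0.34, -1.05, 0.79 and -0.32, and in mks-5 they were 0.45, -0.62, 0.44 and -0.31. The 2 genes thus had the same order of sign over the arrays, with preparations 1 and 3 above 0, and their means were -0.06 and -0.01. The membrane protein gene mks-3 was at -0.16.

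The nephronophthisis module genes nphp-1 and nphp-4 were at 0.18 ± 0.21 and 0.22 ± 0.23. For che-10, the gene of rootletin, which forms the fibre under the cilium, the values were 0.32, 0.36, 0.38 and 0.67. They were all above 0 with an SD of 0.16, but the mean of 0.43 ± 0.20 did not pass (adjusted p = 0.163). The transition fibre gene dyf-19 was at 0.63 ± 0.27 (adjusted p = 0.123).

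Both ciliary kinase genes, which restrain cilium length, failed to pass. For dyf-5 the values were -0.61, -1.11, 1.75 and -0.41, so preparation 3 was far above 0 and the others below it, and the SD was 1.26. For dyf-18 they were -0.35, -0.66, 0.28 and -0.71, again with preparation 3 as the 1 array above 0.

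Of the 18 genes that share these symbols without a place in those complexes, 3 were lower and 1 was higher. These are 16.7% and 5.56%, against 9.66% and 13.4% of all named genes. The xbx genes were named for an X-box, the element that the RFX factor DAF-19 binds, in their promoters. The lowest of all 54 genes was xbx-3, at -1.48, -2.26, -1.58 and -0.74 in preparations 1 to 4. Each array was well below 0, and the mean was -1.52 ± 0.27 (SE, n = 4), a 2.86-fold difference (adjusted p = 0.00689). It was the 1 gene of the 54 that passed under all 11 alternatives, with adjusted p from 0.00461 to 0.0445.

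For xbx-9 the values were -0.87, -1.32, -1.24 and -0.25, with a mean of -0.92 ± 0.25 (adjusted p = 0.0324). It was lower with all 4 arrays but not without preparation 1, 2 or 3 (adjusted p = 0.102, 0.104 and 0.108) or with ribosomal centring (0.0528). The other xbx genes of this group did not pass: xbx-6 was at -0.38, xbx-5 at 0.02 and xbx-4 at 0.06. The 4 values of xbx-5 had an SD of 0.08 and an interval from -0.44 to 0.48.

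The osm genes outside the cilium include osm-11 and osm-7, which encode secreted proteins that act with Notch receptors. For osm-11 the values were -0.76, -0.37, -1.68 and -0.90, with a mean of -0.93 ± 0.26 (SE, n = 4), a 1.90-fold difference (adjusted p = 0.0364). This order, with preparation 3 lowest and preparation 2 highest, was the reverse of the extremes found for many of these genes, described further on. Its call was lost when preparation 1, 3 or 4 was left out (adjusted p = 0.0917, 0.10 and 0.0890), and with ribosomal centring (0.0525). For osm-7 the values were 0.54, -0.22, 0.50 and -0.18, with a mean of 0.16.

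The mean of osm-8, a mucin-like gene whose loss turns on the osmotic response, was 0.64 ± 0.40, with 2.10 in preparation 4 and -0.67 in preparation 2. The TRPV channel gene osm-9, needed for olfaction and osmotic avoidance, was at 0.43, 0.50, 1.05 and 0.07, all above 0, with a mean of 0.51 ± 0.23 (adjusted p = 0.15). The mean of osm-10, which acts in the nociceptive neuron ASH, was -0.21.

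The second higher gene was dyf-4, which acts in the formation of the glial channel around amphid cilia. Its values were 0.74, 1.21, 1.19 and 2.33 in preparations 1 to 4. All were above 0 and preparation 4 was highest, the array in which dyf-6 was lowest. The mean of dyf-4 was 1.37 ± 0.29 (SE, n = 4), a 2.58-fold difference (adjusted p = 0.0123). Without preparation 3 it just missed the threshold (adjusted p = 0.054), at a mean of 1.43. The zona pellucida domain gene dyf-7, whose protein anchors dendrite tips, was at -0.08 ± 0.26, and dyf-17 at -0.05.

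None of the other che genes passed. The mean of che-1, a zinc finger factor that specifies the ASE taste neurons, was 0.04, with 0.97 in preparation 3 and the other arrays between -0.36 and -0.12. The innexin gene che-7 had the widest spread, with -1.08, -1.47, 3.33 and -0.39. Its mean of 0.10 ± 0.70 says little, since 1 array lay far above 0 and 3 below. The Dispatched-like gene che-14 was at 0.35, -1.32, 1.17 and 1.06, with preparation 2 alone below 0. The cyclic nucleotide-gated channel gene che-6 was at 0.29 and che-12, a HEAT repeat gene of amphid neurons, at -0.09.

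The annotation gave 2 probes to each of 4 genes, and these were averaged in the values above. For osm-6, an IFT-B gene, 1 probe was at -0.73, -1.31, -0.63 and -0.99 and the other at 0.03, -0.44, 0.76 and -0.64. The first was below 0 on every array and, tested on its own, was lower (-0.92 ± 0.22, adjusted p = 0.0215), while the second was at -0.08 ± 0.28. For ift-139, 1 probe was at -0.02 ± 0.25 (SE, n = 4) and the other at 1.37 ± 0.49 (SE, n = 3), with 2.71, 1.43 and -0.03 in preparations 1, 3 and 4. For ift-74 the probes were at -0.39 ± 0.24 and 0.09 ± 0.20, and for che-12 at -0.32 ± 0.27 and 0.14 ± 0.24. Only in osm-6 did the probes thus lie on different sides of the threshold. In the other genes the means differed in sign, but none of those probes passed. The averages hide these differences. Why they differ was not tested.

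**Figure D2:**
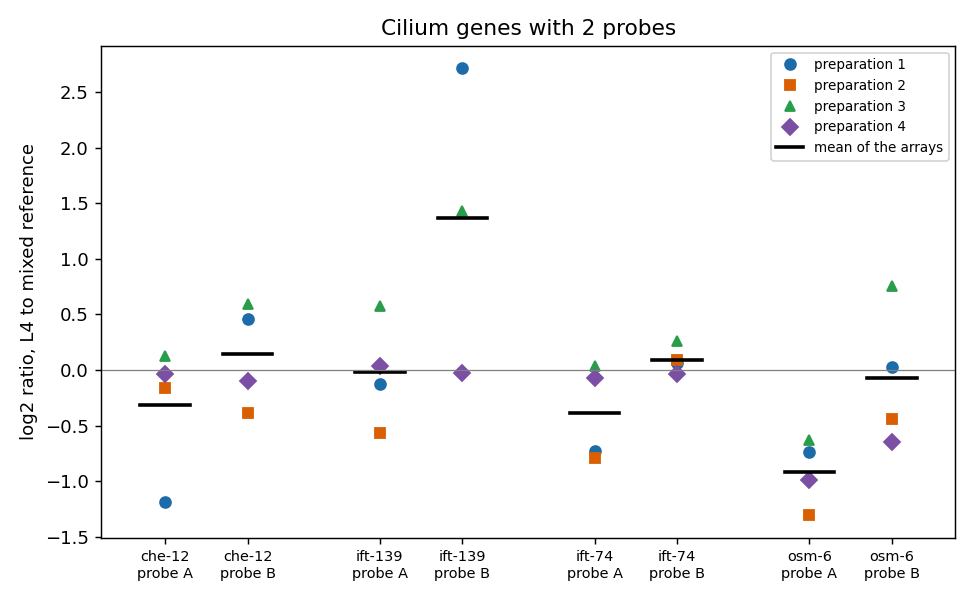
Log2 ratio of L4 to the mixed reference (y axis) for each probe of the 4 cilium genes with 2 probes (x axis), 1 point per preparation and a bar for the mean. Probe A of osm-6 is below 0 on all 4 arrays, and probe B of ift-139 reaches 2.71 in preparation 1 and has no value in preparation 2.

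The preparations differed in a way shared by many of the genes. Each preparation was on its own array, and each array title ends in what reads as a different date. Differences of RNA preparation, array and date therefore cannot be told apart. In preparation 2, 40 of 54 genes were below 0 and the median was -0.33. In preparation 3, 20 of 54 were below 0 and the median was 0.24. Preparations 1 and 4 lay between, with medians of -0.09 and -0.17. Over all probes the values also spread more in preparations 2 and 3 (SD 1.19 and 1.21) than in preparations 1 and 4 (0.95 and 0.85). What part this spread has in the differences was not tested. Over all named genes the medians were between 0.00 and 0.03 on every array, which the centring on the array median largely sets. Of the 53 genes measured on all 4 arrays, 27 had their lowest value in preparation 2 (50.9%), beside 29.7% of named genes, and 25 their highest in preparation 3 (47.2%), beside 26.0%.

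Some other lists had their lowest median in preparation 2 and their highest in preparation 3. These were the guanylyl cyclases (-0.25 and 0.43), the sensory transduction genes (-0.54 and -0.01), the further cilium genes (-0.44 and -0.02) and the list for amphid and phasmid glia (-0.15 and 0.32). The sra superfamily chemoreceptors were highest in preparation 3 (0.67) but lowest in preparation 4 (-0.06), with 0.20 in preparation 2. Centriole genes went the other way, at 0.64 in preparation 2 and -0.57 in preparation 3. Synaptic and pan-neuronal genes were lowest in preparation 2 (-1.04) but not highest in preparation 3 (-0.66). Ribosomal protein genes were lowest in preparation 3, at -0.53. The part of any of these in the shift was not tested.

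**Figure D3:**
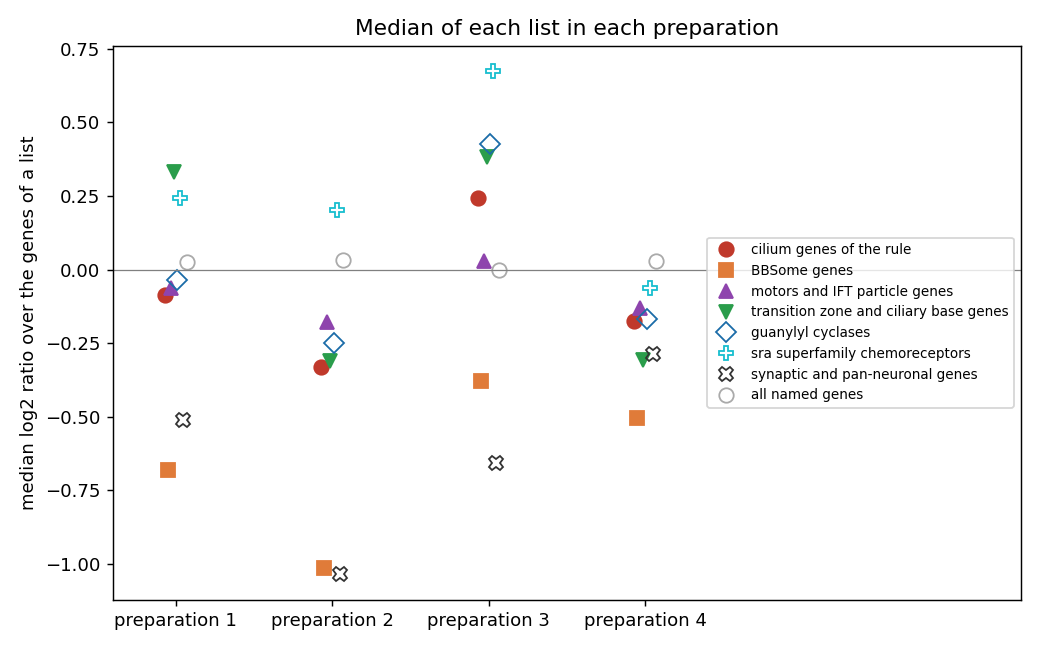
Median log2 ratio over the genes of each list (y axis) in each of the 4 preparations (x axis), with filled symbols for groups of the 54 cilium genes and open symbols for other lists. The cilium genes go from -0.33 in preparation 2 to 0.24 in preparation 3, and the BBSome genes are below 0 in all 4.

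Agreement between arrays across these genes was moderate. Over the 53 genes Pearson's r between 2 arrays ran from 0.350 to 0.655, and over 14385 named genes from 0.569 to 0.758. These are correlations across genes that share arrays and 1 reference, given as a description. Their median SD between arrays, 0.45, was near the 0.47 of named genes. Values below 0 on all 4 arrays were found for 11 of the 54 genes (20.4%), against 21.8% of named genes, and values above 0 on all 4 for 5 (9.26%), against 23.7%.

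Further genes of the cilium were listed by function and not by symbol. Of 37 listed, 28 were measured, 3 were lower (10.7%, near the 9.66% of all named genes) and 1 was higher (3.57%, against 13.4%), with a median of -0.32. The lower ones were the kinase genes cdkl-1 at -1.31 ± 0.38 (SE, n = 4) and mapk-15 at -1.17 ± 0.30, and arl-3, a small GTPase gene of lipidated cargo, at -1.10 ± 0.21. The higher one was the alpha tubulin gene tba-6, at 1.14 ± 0.29. Higher calls numbered 0 without preparation 1 or 2 or with ribosomal centring and 2 without preparation 4. Adjusted p ran from 0.00851 for arl-3 to 0.0412 for cdkl-1. The count of 3 lower was 5 with values as deposited, with values on all 4 arrays or without preparation 4, and 1 without preparation 2 or 3 or with ribosomal centring.

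Of the genes in this list chosen for mention with their values known, the IFT-A gene daf-10 was at 0.69, 5.80, 0.37 and 0.69. Preparation 2 stood far above the others, and the mean of 1.89 ± 0.82 did not pass (adjusted p = 0.134). The RFX factor gene daf-19, chosen likewise, was below 0 on every array, with a mean of -0.67 ± 0.23 (adjusted p = 0.0715). The kinesin subunit genes klp-11 and kap-1, which move the particles along the middle part of the cilium, were at -0.25 and -0.29. They too were chosen with their values known, and did not pass.

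Lists of related cells and functions give these counts a setting. Of 17 sensory transduction genes, 1 was lower, the diacetyl receptor gene odr-10 at -1.31 ± 0.23 (SE, n = 4, adjusted p = 0.00578), and 0 were higher. The share lower was 5.88%, where 9.66% of all named genes were lower and 13.4% higher. Without preparation 4 there were 2 lower. The next in size, grk-2 and arr-1, were at -0.75 and -0.59 and did not pass. Of 32 guanylyl cyclase genes, 2 were higher, gcy-12 at 1.04 ± 0.22 and gcy-1 at 0.95 ± 0.27, and 0 were lower, with a median of 0.00. The share higher was 6.25%, below the 13.4% of all named genes. The 2 became 1 without preparation 1, 2 or 3 and 0 with ribosomal centring. Of 106 sra superfamily chemoreceptors, 8 were higher (7.55%, below the 13.4% of all named genes) and 1 lower (0.943%, against 9.66%), with a median of 0.26. The 8 became 2 without preparation 2 or with ribosomal centring, and 1 without preparation 3.

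Of synaptic and pan-neuronal genes, 13 of 37 were lower (35.1%, against 9.66% of all named genes) and 0 higher, with a median of -0.65. The largest in size were tbh-1 at -2.21 ± 0.44, egl-3 at -1.79 ± 0.24, ric-4 at -1.59 ± 0.26 and egl-21 at -1.56 ± 0.27. For tbh-1 the values were -1.32, -0.99, -2.78 and -3.73 in preparations 1 to 4, a wide spread. Without preparation 3 the count of lower genes was 5, and without preparation 1 it was 8. No test of the difference between these lists and the cilium genes was made, and unc-119 is in the cilium and synaptic lists.

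The list made for amphid and phasmid glia had 14 measured genes, not all of them limited to those glia. In it vap-1 and ztf-16 were lower, at -1.50 ± 0.29 and -0.82 ± 0.22, and the channel gene delm-2 was higher, at 1.22 ± 0.21. The shares were 14.3% lower and 7.14% higher, against 9.66% and 13.4% of all named genes. With ribosomal centring, or without any 1 preparation, 1 glial gene was lower. The glial patched-related gene daf-6, with which dyf-4 acts, was chosen for mention with its values known and was at 0.80 ± 0.30 (adjusted p = 0.0932). Centriole genes had 0 calls among 7 in limma, where 9.66% of all named genes were lower and 13.4% higher. The largest in size were sas-5 at -0.62 and sas-7 at 0.56, and of the 7 only sas-7 had an unadjusted p under 0.05 (0.0404).

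**Figure D4:**
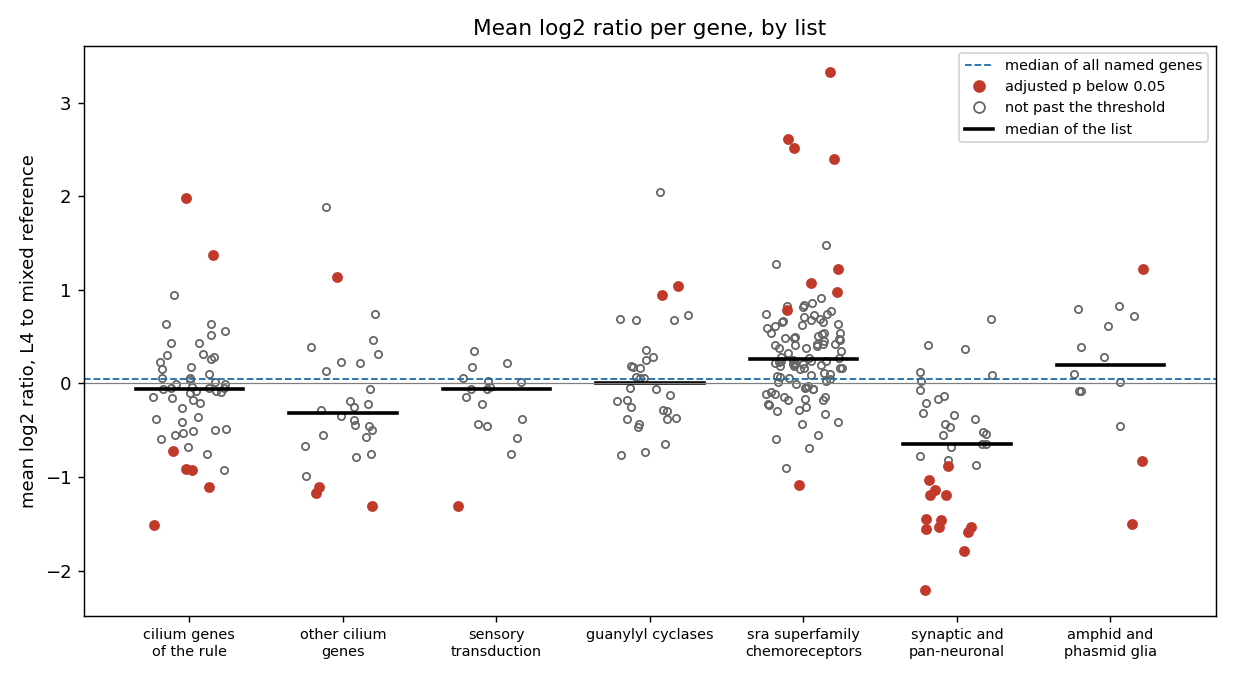
Mean log2 ratio per gene (y axis) for the 54 cilium genes and 6 other lists (x axis), with filled red points for genes with an adjusted p below 0.05, open points for the rest, and a bar at each list's median. The cilium genes centre on -0.06 and the synaptic and pan-neuronal genes on -0.65.

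How firmly each call stands is shown by the fits without 1 preparation each. Of lower genes 1 was left when preparation 1 was dropped, 2 when it was preparation 2 or 3, and 3 when it was preparation 4. Of higher genes 0 were left when preparation 3 was dropped. Over all named genes these fits also called fewer, down to 4.91% lower and 7.80% higher without preparation 3. All 7 means kept their sign in these fits. Those of the lower genes ran from -1.77 to -1.27 for xbx-3, -1.25 to -0.87 for bbs-5, -1.14 to -0.79 for xbx-9, -1.12 to -0.68 for osm-11 and -0.79 to -0.63 for osm-12. Those of the higher genes ran from 1.73 to 2.50 for dyf-6 and from 1.05 to 1.58 for dyf-4.

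**Figure D5:**
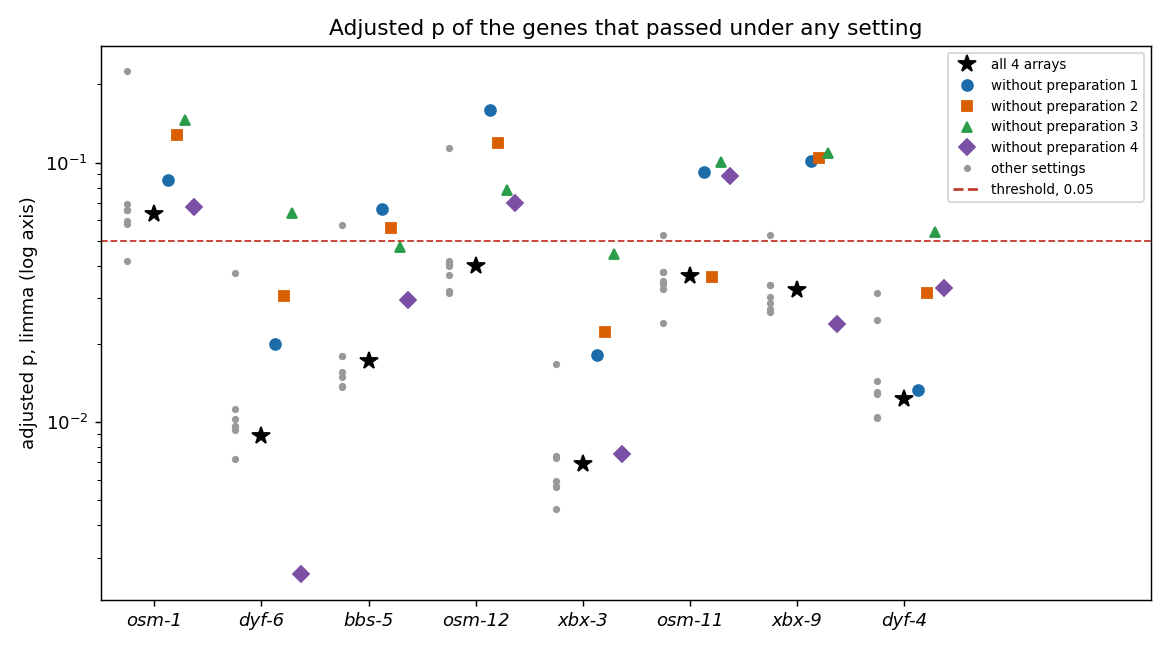
Adjusted p in limma (y axis, log scale) for the 8 cilium genes that passed under any setting (x axis), with a star for all 4 arrays, coloured symbols for fits without 1 preparation and grey points for other settings. Each symbol for xbx-3 lies below the threshold of 0.05 (dashed line), and each fit of osm-12 without 1 preparation lies above it.

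The genes beside the 7 called ones in the RefSeq gene order were looked up by name. Of 14 adjacent protein-coding genes, 10 were measured and 2 passed, both lower, where 9.66% of all named genes were lower and 13.4% higher. A count this small over 10 genes says nothing particular about neighbours. One of the 2 was M04D8.7, next to xbx-3, at -0.79 ± 0.21 (SE, n = 4, adjusted p = 0.0327), the same direction as xbx-3. The other was rme-4, next to dyf-6, at -0.72 ± 0.21 (adjusted p = 0.0457), the opposite direction to dyf-6. The gene inpp-4B, which overlaps bbs-5 in that annotation, was at 0.18 ± 0.25.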

How the data were processed

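The authors deposited 1 value per probe and array, with no unit, scanner, dyes, background correction or normalization given by any source at hand. Taking these deposited values as log2 ratios rests on a grid: 2 raised to each value below 0 was a multiple of 0.001 (tolerance 0.02 steps) for 100% of them on each array, and under natural or base-10 logarithms 3.71% to 5.93% were. The median over probes was -0.05, 0.01, -0.10 and -0.04 on the deposited arrays, in order of preparation, and no source states the centring or the direction of the ratio. Here each array was centred on its median, probes with 1 gene were averaged per gene (1 platform annotation, 16450 of 21632 probes), and 247 probes with several genes and 4935 with none stayed unnamed. A value on at least 3 of 4 arrays was required, which left 19911 probes and genes. In R 4.3.3, limma 3.58.1 (lmFit, eBayes) gave a two-sided test of each mean against 0. The Benjamini-Hochberg adjustment covered all 19911, with a threshold of 0.05. The reference counts as 1 sample, so its own spread is left out. The fit was also run on data simulated from its own model, with no shift shared by genes. That run checks the code and cannot show that the calls here hold. Python 3.11.15, pandas 2.3.3, scipy 1.17.1 and matplotlib 3.10.9 did the rest.

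The genes, lists and alternatives were chosen with earlier results of these data known. Every cilium gene with a value is named. From each other list up to 4 genes past the threshold with the largest means were eligible for naming, or, where fewer than 2 passed, the 2 largest as well. All 54 symbols matched RefSeq (WBcel235), used for names and gene order only. No build is named for the array, so no coordinates are given. Promoter motifs were not analysed here. Alternatives were values as deposited, ribosomal centring, scaling, other limits on missing values, single probes, robust shrinkage and leaving out each preparation.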

Additional observations from a re-analysis of the deposited data

Results flagged for a closer look

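In 2 of 53 cilium genes with a value on all 4 arrays, 1 array stood far from the other 3 by Dixon's test. For che-11 it was preparation 2, at -1.36, with the others between -0.17 and 0.02. For bbs-8 it was again preparation 2, at -1.29, with the others between -0.53 and -0.38. Chance gives such a result in about 1 of 20 groups.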

How the results depend on the processing

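Each cilium gene was compared with its main result under each of the 11 alternatives that applied to it. Of these comparisons of 1 gene under 1 alternative, 570 kept the call or the lack of one and 18 lost a call. In 1, osm-1 with arrays scaled to 1 spread, a call was gained. Of the called genes xbx-3 alone kept its call under all 11, and no called gene changed sign. The lower cilium genes, 5 with all arrays, numbered 1 with ribosomal centring and 1 to 3 without 1 preparation, and the 2 higher ones 0 to 2 without 1 preparation. Of the further cilium genes, 3 lower and 1 higher, the lower numbered 5 with values as deposited or on all 4 arrays, 1 with ribosomal centring and 1 to 5 without 1 preparation, and the higher numbered 0 with ribosomal centring and 0 to 2 without 1 preparation. The lower synaptic genes numbered 5 to 13 without 1 preparation. Of the guanylyl cyclases, 0 were higher with ribosomal centring and 1 to 3 without 1 preparation. The higher sra superfamily chemoreceptors numbered 2 with ribosomal centring and 1 to 9 without 1 preparation, and 2 were lower with arrays scaled. Ribosomal centring also called fewer named genes, 6.52% lower and 7.61% higher. Leaving out an array leaves 3, so fewer samples are tested. No signal over background is given in these values, so what dim probes limit cannot be stated.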

Other observations

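One probe is annotated to 3 genes, dyf-17, nhr-95 and asp-1, and was therefore left out of the cilium genes. Its values were -0.69, -1.28, -0.74 and -0.76 in preparations 1 to 4, with a mean of -0.87 ± 0.22 (SE, n = 4, adjusted p = 0.0252 in limma with each probe tested on its own). The probe of dyf-17 alone was at -0.05, so the values of the shared probe cannot be assigned to 1 of its genes.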
